A study of Mus musculus with 6 samples.

Results

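DNA methylation on chromosomes 1 to 19 was compared between mouse bone marrow cells after 7 days and after 4 days of culture with Flt3L, the cytokine that drives growth of dendritic cells from marrow progenitors. The unit was a region, defined as a run of 3 or more cytosines of the deposited table with neighbours at most 100 bp apart and at least 10 reads, summed over its cytosines, in each of the 4 samples. Of 68039 such runs on the autosomes (69246 in the whole table), 56086 met the read minimum. Those with only methylated or only unmethylated reads over the 4 samples (1317) cannot show a difference, which left 54769 to test. Of the 11953 autosomal runs left out, 11026 fell short only in day 7 replicate 4.

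All 6 samples of the series are labelled as male C57BL/6J, and the culture medium held supernatant of an SP2/0 line transfected to secrete Flt3L. The day 4 cells (replicates 1 and 2) are labelled as common myeloid progenitors and the day 7 cells (replicates 1 and 4) as bone marrow derived dendritic cells. The labels state that the live cells of the culture were taken and name no sort, so each sample is a mixture, and a shift in its cell types and a change of methylation within a type cannot be told apart. Uncultured marrow (day 0, replicates 2 and 3) did not enter the comparison and is given beside it. Positions of genes on mm9, the build of the table, were not used here, so regions carry coordinates only and the labelled cell types were not checked against marker loci.

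In mammalian DNA, methyl groups sit mostly on cytosines followed by guanine (CpG). CpG-rich stretches, many of them at promoters, are usually free of methylation, while CpG-poor sequence is usually methylated. Blood cell differentiation is known for local losses of methylation at enhancers, in dendritic cells among others, and maintenance enzymes copy the existing pattern when cells divide.

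Day 7 libraries stood apart from the others outside the autosomes. Reads per X cytosine relative to autosomal cytosines were 1.01 and 1.07 in day 7 replicates 1 and 4 and 0.684 and 0.688 in day 4 replicates 1 and 2, although all carry the label male. Reads on unplaced Y sequence came to 40.2 and 43.9 per 1000000 autosomal reads at day 7, against 68.9 and 60.0 in the day 4 pair, with the 0.1% deepest cytosines of each sample left out of the autosomal reads. Neither measure overlapped between the days, so what sets the day 7 libraries apart there and the time in culture cannot be told apart. Levels on the mitochondrial sequence (reads of 31 cytosines summed) were 1.17% and 0.664% at day 4 and 2.27% and 1.76% at day 7.

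Depth was unequal. Summed over the listed cytosines, day 4 replicates 1 and 2 had 10242334 and 6736556 reads, against 8690273 and 3641141 in day 7 replicates 1 and 4. The median region had 73, 48, 59 and 22 summed reads in these samples. A read that covers several cytosines of a region is counted at each of them. Between 60.4% and 65.2% of neighbouring autosomal cytosines at most 100 bp apart had equal numbers of reads in these 4 samples. As reads per cytosine, the medians over regions were 15.5, 10, 12.4 and 5. Region tests that add up such reads treat them as independent, which makes their p-values too small.

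Mean levels over all 56086 regions did not separate the days. Day 4 replicates 1 and 2 stood at 47.0% and 45.7%, and day 7 replicates 1 and 4 at 47.7% and 46.8%. Day 7 replicate 4 thus lay below day 4 replicate 1. The group means were 46.4% ± 0.934 and 47.2% ± 0.617 (SD, n = 2 each; two-sided exact permutation p = 0.667, where 2 samples against 2 allow no p below 0.333). Uncultured marrow stood at 45.6% and 44.1%. The difference of 0.876 points was 1.54 without day 4 replicate 1, 0.216 without day 4 replicate 2 and 0.440 without day 7 replicate 1.

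Individual regions rarely passed the test. At an adjusted p below 0.05 (edgeR likelihood ratio test, Benjamini-Hochberg over all autosomal regions) and a difference of at least 20 percentage points, 9 of 54769 regions, or 0.0164%, were called. Of these, 6 rose at day 7, or 0.011% of those tested, and 3 fell, or 0.00548%. An unadjusted p below 0.05 was found for 5731 regions (10.5%), 4502 of them higher (8.22%) and 1229 lower (2.24%) at day 7. The model put 1 dispersion on all regions, so the spread between the replicates of a given region did not enter its p. The quasi-likelihood test called 2 of the 9, and limma called 0 with 5355 at an unadjusted p below 0.05.

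How reads are counted bears on these calls. Of the 9, 4 were also called among the 25990 regions with a mean of at least 5 reads per cytosine in each sample. When counts were in addition divided by the number of cytosines, only the region on chromosome 6 stayed called. Without day 4 replicate 2, none of the 9 stayed called.

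On chromosome 15, the region chr15:73493022-73493161 (5 cytosines) rose between day 4 and day 7. Day 4 replicates 1 and 2 stood at 22.4% and 32.5% and day 7 replicates 1 and 4 at 76.9% and 83.7%, on 8.60 to 15.4 reads per cytosine. The days did not overlap, and the gap was wider than the spread within either day. The means were 27.5% ± 7.08 and 80.3% ± 4.81 (SD, n = 2 each; adjusted p = 0.01529, edgeR). Uncultured marrow lay between, at 61.1% and 57.6%. All 5 cytosines were higher at day 7, by 33.3 to 56.2 points on the reads pooled by day. Day 4 replicate 1 had only 2 reads at each of positions 73493049 and 73493061. These positions had equal read numbers in every sample, so the cytosines are not independent counts of the change. Within 100 kb on either side lay 10 other regions, whose mean level was 42.6% at day 4 and 43.0% at day 7. Their day 7 values, 38.6% and 47.4%, lay on either side of day 4. The difference ran from 47.9 points without day 4 replicate 1 to 57.9 without day 4 replicate 2, against 52.9 with all 4 samples. The call was lost in the quasi-likelihood test (adjusted p = 0.1796).

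The largest difference among the calls was on chromosome 16 at chr16:93705928-93706090 (8 cytosines). Its levels were 29.2% and 7.25% for day 4, 62.8% and 100% in day 7 replicates 1 and 4, and 53.8% and 8.93% in day 0 replicates 2 and 3. Replicates of each day differed by more than 20 points here, those of day 0 most of all. Day 7 replicate 4 had 2 reads at each cytosine, all methylated, which give its 16 summed reads. The means were 18.2% ± 15.5 and 81.4% ± 26.3 (SD, n = 2 each; adjusted p = 0.003905, edgeR). The difference ran from 44.6 points without day 7 replicate 4 to 81.8 without day 7 replicate 1, against 63.2 with all 4 samples.

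The rise at chr11:5906305-5906465 (7 cytosines) started from nearly no methylation. Day 4 replicate 1 stood at 1.68% and replicate 2 at 0%, where 3 reads at its mean depth of 15.9 per cytosine would allow up to 18.9%. Day 7 replicate 1 stood at 9.90% and replicate 4 at 72.0%, the latter on 3.57 reads per cytosine. All 7 cytosines were higher at day 7. The mean was 40.95% ± 43.9 for day 7 against 0.840% ± 1.19 for day 4 (SD, n = 2 each; adjusted p = 0.0005121, edgeR). The size of this rise rests on replicate 4. Without it the difference was 9.06 points, against 40.1 with all 4 samples.

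A pair of rises ended at full methylation. The region chr3:59471180-59471251 (3 cytosines) had 60.0% and 63.4% in the day 4 samples, 84.0% and 72.7% in uncultured marrow and 100% in both day 7 samples (adjusted p = 0.04494, edgeR). At chr10:4265362-4265406 (5 cytosines) the levels were 80% and 50% at day 4, 100% in both day 7 samples and 74.3% and 76.9% at day 0 (adjusted p = 0.02991, edgeR). Day 0 lay inside the spread of day 4 at the latter region. Day 7 replicate 4 had 3 reads per cytosine there, and replicate 1 had 4.67 at the former. Neither call held without day 4 replicate 2 or without either day 7 sample, and the former was also lost without day 4 replicate 1.

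The rise at chr6:3151209-3151245 (5 cytosines) differs from the others in depth. It had 493 and 363 reads per cytosine at day 4, against only 13 and 26.4 in the day 7 libraries, while uncultured marrow had 524 and 442. Relative to the median region of the same sample, its reads were 33.8 and 37.8 times as many at day 4 and 1.10 and 6.00 times as many at day 7. Levels were 7.18% and 8.16% at day 4 and 44.6% and 35.6% at day 7 (adjusted p = 0.006272, edgeR). The share of reads taken by this site moved with its level, and the part of depth in the difference was not tested. The difference ran from 27.9 points without day 7 replicate 1 to 36.9 without day 7 replicate 4, against 32.4 with all 4 samples.

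The 3 falls all started near full methylation. At chr10:128113609-128113645 (4 cytosines) the day 4 samples stood at 98.2% and 100% and the day 7 samples at 76.1% and 76.2%. The means were 99.1% ± 1.26 and 76.1% ± 0.0949 (SD, n = 2 each; adjusted p = 0.03184, edgeR). Day 7 replicate 4 had 16 methylated among 21 summed reads here, or 5.25 reads per cytosine. The small SD of day 7 therefore does not measure how precisely its level is known. Day 0 stood at 88.5% and 83.3%. At chr4:137027401-137027432 (3 cytosines) day 4 had 100% and 96.9%, day 7 had 56.5% and 66.7%, and day 0 lay between with 76.2% and 73.5% (adjusted p = 0.02991, edgeR). The third cytosine of this region had the widest gap, 92.9% at day 4 against 36.4% at day 7 on pooled reads, the latter from 9 and 2 reads. At chr17:27073769-27073797 (4 cytosines) the day 4 levels were 98.0% and 100%, while day 7 replicates 1 and 4 stood at 79.1% and 43.8% (adjusted p = 0.02366, edgeR). The level of day 7 replicate 4 came from 4 reads per cytosine. Day 0 stood at 92.0% and 96.6% there, close to day 4. With a sample left out, the difference ran from -23.9 to -22.1 points on chromosome 10 and from -41.9 to -31.8 on chromosome 4. On chromosome 17 it was -55.25 points without day 7 replicate 1 and -19.9 without day 7 replicate 4. All 3 calls were lost in the quasi-likelihood test (adjusted p of 0.3061 to 0.4666).

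**Figure D1:**
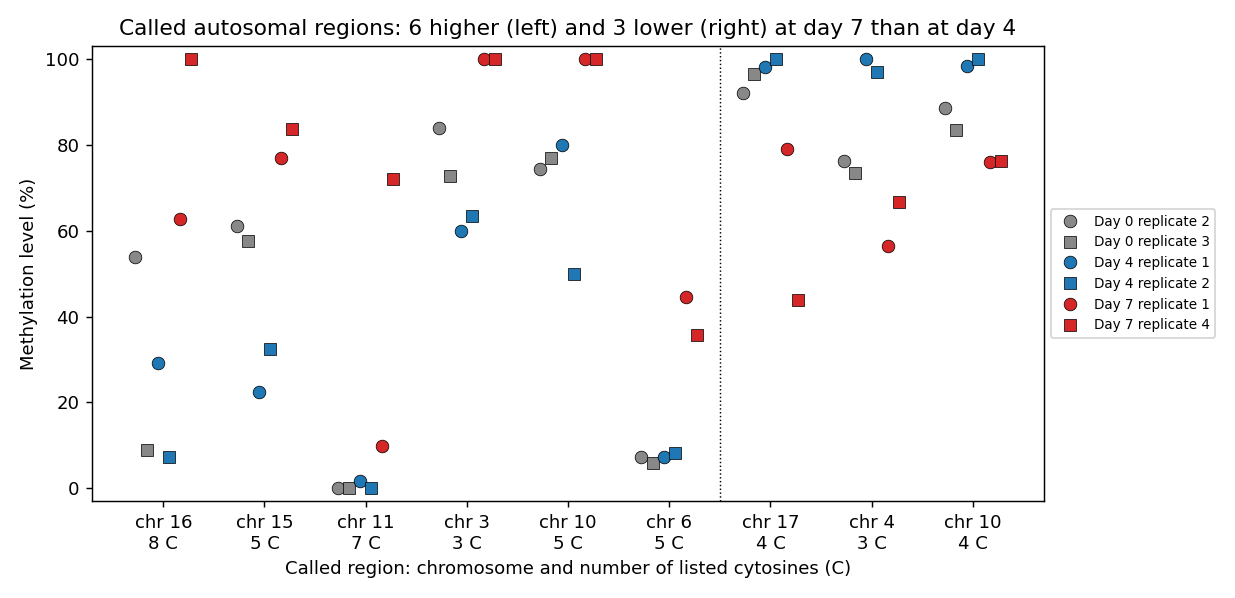
Methylation level in percent of the 9 called regions in each of the 6 samples, 1 point per sample, with grey for day 0, blue for day 4 and red for day 7. Day 0 lies between day 4 and day 7 in several regions, and the day 7 replicates are far apart on chromosome 11 (9.90% and 72.0%) and chromosome 17 (79.1% and 43.8%).

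In the called regions, all 44 cytosines moved with their region on the reads pooled by day. Since cytosines of a region share reads, they are not independent counts of the change. The 9 calls lay on 8 chromosomes, and the 2 on chromosome 10 were 123848203 bp apart, so no pair of calls was close. Among the neighbours within 100 kb, 3 regions in all differed by 20 points or more, 1 each near the calls on chromosome 6, on chromosome 4 and at the later position on chromosome 10.

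Another 6 regions had an adjusted p below 0.05 with a difference under 20 points, and all 6 were higher at day 7 (0.0274% of regions had such a p at any difference). Of these, 4 were long and nearly unmethylated at day 4. The longest, chr1:16095519-16095876 (38 cytosines), had 0 methylated among 517 and 397 summed reads at day 4 and stood at 3.14% and 3.5% at day 7 (adjusted p = 0.006234, edgeR). By the mean depth per cytosine the day 4 zeros allow up to 22.1% and 28.7%. Reads per cytosine varied from 11 to 31 in day 4 replicate 1, so not all cytosines shared the same reads. The limit for the region as a whole is therefore lower. Of its 38 cytosines, 18 were higher at day 7. At chr1:9535882-9536219 (28 cytosines) the levels were 0.317% and 0.583% at day 4 and 4.65% and 6.78% at day 7 (adjusted p = 0.03184, edgeR). The regions chr9:54829330-54829456 and chr13:99125263-99125531 (25 cytosines each) stood at 11.02% and 10.4% in day 7 replicate 1 but at 1.11% and 2.45% in replicate 4. Their rise therefore rested mostly on replicate 1.

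At chr8:19892594-19892757 (14 cytosines) the levels were 2.32% and 0% at day 4 and 14.2% and 23.5% at day 7 (adjusted p = 0.003905, edgeR). Day 0 stood at 1.04% and 12.4%, so uncultured marrow had already 1 sample near the lower day 7 level. The zero of day 4 replicate 2 allows up to 26.6% at 11.3 reads per cytosine. At chr8:117151985-117152018 (8 cytosines) both day 7 samples stood at 100%, above 88.2% and 80.3% at day 4 and 91.2% in both day 0 samples (adjusted p = 0.02297, edgeR).

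Below the threshold, the places of the naming rule were filled by 4 rises and 7 falls that did not pass the test. The smallest p among the rises was at chr9:118937966-118938018, with 36.4% and 22.5% at day 4 against 81.5% and 64.0% at day 7 (adjusted p = 0.07055, edgeR). Levels at chr15:97036291-97036333 were 39.2% and 40.5% at day 4 and 76.1% and 92.9% at day 7 (adjusted p = 0.1069, edgeR). In both of these, day 0 lay between the days, at 56.1% and 51.6% and at 57.4% and 60.0%. Among the falls, chr17:12935111-12935233 (7 cytosines) had 31.2% and 59.8% at day 4, 0% and 19.05% in day 7 replicates 1 and 4, and 66.3% and 18.8% in uncultured marrow (adjusted p = 0.1013, edgeR). Its zero in day 7 replicate 1 allows up to 50% at 6 reads per cytosine. At chr17:88145604-88145743 (8 cytosines) the day 7 samples were close together, at 18.3% and 17.8%, while day 4 stood at 73.5% and 36.2% (adjusted p = 0.1289, edgeR). The other 5 falls had day 4 means of 94.2% to 99.04% and day 7 means of 64.4% to 75.9% (adjusted p of 0.1053 to 0.1347, edgeR).

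Among all 31405 tested regions with at least 20 summed reads in each sample, 191 stood higher and 107 lower at day 7 by 20 points or more, with no overlap between the days. At any size of difference, day 7 exceeded day 4 without overlap in 24.2% of all tested regions and stood lower without overlap in 10.4%. The 191 higher regions had medians of 59.4%, 48.0% and 74.7% on days 0, 4 and 7. Uncultured marrow exceeded day 4 without overlap in 89 of them and stood lower in 5, against 10.2% and 20.9% of all tested regions. The 107 lower regions had medians of 77.6%, 88.4% and 64.5% on these days. Here marrow stood lower than day 4 without overlap in 69 and higher in 3. Choosing regions by their day 4 level favours a day 0 level on the side of day 7, so the place of day 0 is a description. By starting level, the higher share was 6.40% of 1250 regions between 20% and 50%, 2.38% of 3736 between 50% and 80% and 0.943% of 2015 between 5% and 20%. Regions of 80% and above held 77 of the 107 lower ones, or 0.840% of 9168. The lower share was 0.616% between 50% and 80% (23 regions) and 0.56% between 20% and 50% (7 regions). Levels above 80% leave no room for a rise of 20 points, nor levels below 5% for such a fall. The split by starting level is therefore partly set by these bounds.

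Differences of this size were as common between replicates as between days. Among 31947 regions with at least 20 summed reads in each sample, 2.29% differed by 20 points or more between the day 4 replicates and 4.99% between the day 7 replicates. The 4 pairs of a day 4 and a day 7 sample gave 1.78% to 5.91%. Both pairs with day 7 replicate 4 gave 4.78% and 5.91%, and both with day 7 replicate 1 gave 1.78% and 3.01%. Pairs with the shallow library thus gave the higher shares, within day 7 and between days. The chi-square per degree of freedom was 2.31 between the day 4 samples and 3.64 between the day 7 samples. Reads counted at several cytosines raise this measure, so it cannot show whether replicates differed by more than counting noise.

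**Figure D2:**
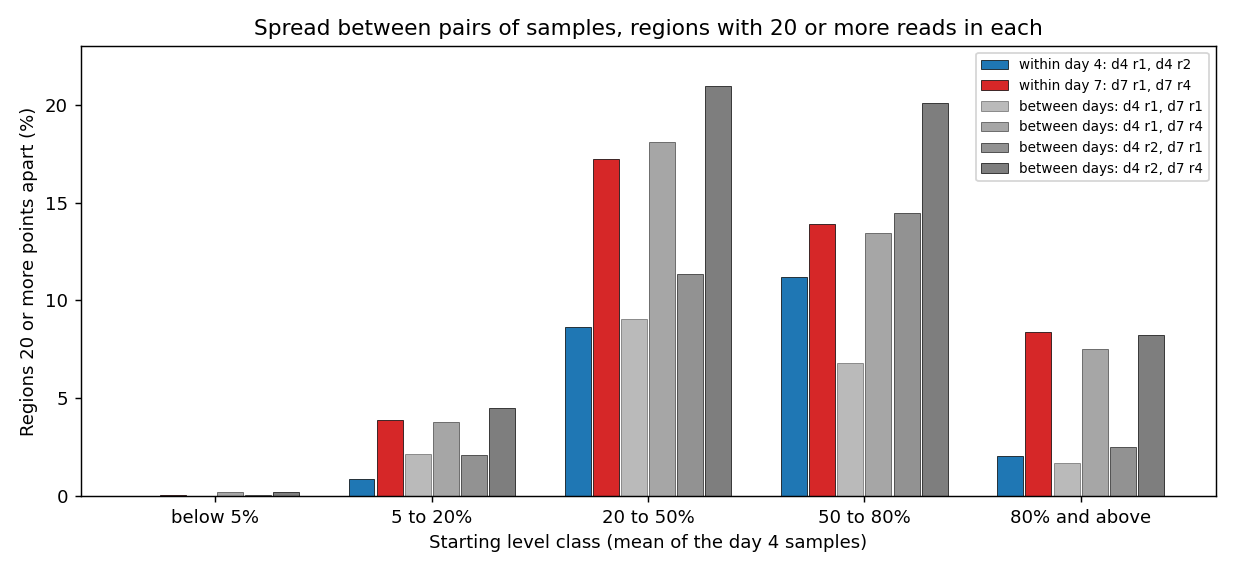
Share of regions, in percent, that lie 20 or more percentage points apart in each pair of samples, by starting level class (blue: the day 4 replicates, red: the day 7 replicates, grey: pairs of a day 4 and a day 7 sample). The tallest bars are in the classes from 20% to 80%, where the day 7 replicates lie within the range of the grey bars.

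The starting level, taken as the mean of both day 4 samples, divided the regions into 20638 below 5%, 3333 from 5% to 20%, 2586 from 20% to 50%, 9056 from 50% to 80% and 20473 at 80% and above. Nearly unmethylated and highly methylated regions thus made up most of the set. In every class below 80% both day 7 samples stood above both day 4 samples. In the highest class the days overlapped. With 2 samples a day the exact permutation test of a class mean cannot go below 0.333, so the class means are given as a description, and differences between classes were not tested.

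Regions below 5% had means of 1.10% and 0.901% in day 4 replicates 1 and 2, against 2.42% and 2.27% in day 7 replicates 1 and 4. Day 0 stood at 1.03% and 1.24%, level with day 4. Group means were 1.00% ± 0.143 and then 2.35% ± 0.109 (SD, n = 2 each). The difference of 1.34 points was wider than the spread within either day. Mitochondrial cytosines, given above, differed by 1.10 points in the same direction, and the part of whatever raised them in the autosomal difference was not tested. When the class was set by the day 0 samples, which enter neither mean, the difference was 1.17 points. Set by the day 7 samples it was 0.663 points, with the days still apart. It was 1.32 points in the 10245 regions with a mean of at least 5 reads per cytosine.

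Few of these regions moved far. A difference of 20 points or more without overlap was found in 3 of the 15236 tested that had 20 or more reads in all 4 samples, and the called region on chromosome 11 belongs to this class. Day 7 exceeded day 4 without overlap in 6427 of all 20638 regions of the class (31.1%) and stood lower without overlap in 618 (2.99%). Over all 56086 regions these shares were 23.6% and 10.2%. An unadjusted p below 0.05 was found for 3243 of the 19334 tested, 3186 of them higher at day 7 and 57 lower, which is 16.8% against 10.5% over all regions. Levels near 0 leave little room for a fall, and the class was set by the day 4 samples compared here. Both splits therefore lean toward a rise by construction. Of the 19467 regions with both day 4 samples below 5%, only 47 reached 10% or more in both day 7 samples, 204 did so in replicate 1 alone and 557 in the shallower replicate 4 alone. In the 18659 that reached 10% in neither, the mean still stood at 0.802% at day 4 and 1.88% at day 7. These regions were chosen by their day 7 levels, so their values are a description.

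Longer regions separated more often. Day 7 exceeded day 4 without overlap in 18.5% of the low regions with 3 to 5 cytosines, 28.2% of those with 6 to 10, 42.2% of those with 11 to 20 and 58.7% of those with 21 or more. Their differences were 1.64, 1.30, 1.11 and 1.04 points. The share without overlap thus went up with length while the difference went down, and longer regions also sum more reads.

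Intermediate classes showed larger gaps that depended on how the class was set. Between 5% and 20% the day 4 samples stood at 10.4% and 10.3% and the day 7 samples at 12.1% and 12.7%, a difference of 2.00 points. This gap was about the same, at 2.14 points, with classes from day 0. Between 20% and 50% the levels were 35.5% and 34.7% at day 4 and 38.1% and 39.5% at day 7, a difference of 3.75 points that came to 2.37 with classes from day 0 and to 5.70 without day 4 replicate 1. Between 50% and 80% the day 4 samples lay apart, at 73.0% and 68.6%, and the day 7 samples stood at 75.5% and 74.6%. That difference of 4.19 points was 7.40 without day 4 replicate 1, and it came to 1.26 with classes from day 0, where the days overlapped, and to 1.34 when the class came from 1 day 4 sample and the level from the other. With classes from day 7 it turned to -3.40 points.

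Regions at 80% and above stood at 89.2% and 87.9% at day 4 and at 88.0% and 85.9% in day 7 replicates 1 and 4. The mean difference of -1.61 points was -3.01 without day 4 replicate 2, -2.58 without day 4 replicate 1, -2.65 without day 7 replicate 1 and -0.562 without day 7 replicate 4. It was -0.242 with classes from day 0 and -0.0953 when the class came from 1 day 4 sample and the level from the other. Setting a class by the samples that are then compared favours a move toward the middle. With classes from day 7 it was 2.59 points, so no direction can be read for regions of 50% and above. Among 20460 tested regions of this class 1022 were lower and 544 higher at an unadjusted p below 0.05 (edgeR). Together these made up 7.65% of those tested in the class, against 10.5% over all tested regions. Levels near full methylation leave little room for a rise, and the class was set by the day 4 samples compared here. The split into lower and higher therefore leans toward a fall by construction.

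**Figure D3:**
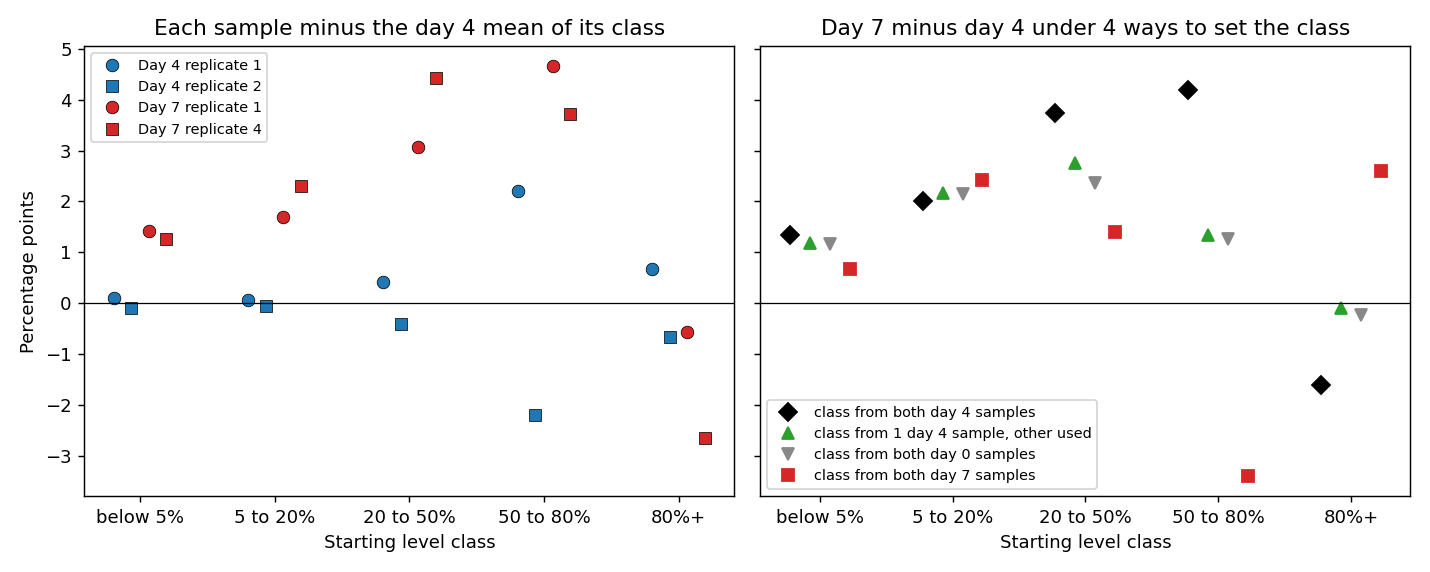
Left, mean level of each of the 4 samples minus the day 4 mean of the class, in percentage points, by starting level class. Right, the difference of day 7 and day 4 means when the class is set by both day 4 samples (diamonds), by 1 day 4 sample with the level read in the other (upward triangles), by the day 0 samples (downward triangles) or by the day 7 samples (squares). The 4 markers stay above 0 below 50% and lie on both sides of 0 from 50% upward.

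CpG density was taken as listed cytosines per 100 bp of the region. The median was 6.25, with 6450 regions below 3, 13911 from 3 to 5, 15638 from 5 to 8 and 20087 at 8 and above. Levels were lower at higher density, from 66.4% ± 1.61 at day 4 in the sparsest class to 35.3% ± 0.572 in the densest (SD, n = 2 each). At day 7 the same classes stood at 68.0% ± 0.608 and 35.9% ± 0.594. The differences of day 7 and day 4 were 1.60, 1.09, 0.781 and 0.571 points from the sparsest to the densest class. Only in the sparsest class did the days not overlap, at 67.6% and 65.3% against 68.5% and 67.6%, and the gap there between the nearest samples was small. Without day 4 replicate 2 the differences of the 4 classes came to 0.469, 0.228, 0.164 and 0.166 points, and without day 4 replicate 1 to 2.74, 1.95, 1.40 and 0.975. Without day 7 replicate 1 they were 0.646, 0.325 and 0.151 in the denser 3 classes. Without day 7 replicate 4 they were 1.24 and 0.991 in the densest 2.

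Density classes also differed in their mix of levels. Regions below 5% made up 7.47% of the sparsest and 52.6% of the densest class. Within the level classes the dependence on density varied. Between 5% and 20% the differences were 3.90, 2.21, 1.701 and 1.51 points from the sparsest to the densest. Between 50% and 80% they ran from 4.08 to 4.36 points over the 4 density classes, and between 20% and 50% from 3.40 to 4.26 points. At 80% and above they ran from -2.09 to -1.11 points, with the lowest value in the densest class. Among low regions they were smaller at higher density, at 2.19 points below 3, 1.61 from 3 to 5, 1.32 from 5 to 8 and 1.24 at 8 and above. The densest low regions stood at 0.952% and 0.773% in the day 4 pair, against 2.20% and 2.00% in the day 7 pair. No density class of the low regions had overlapping days.

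**Figure D4:**
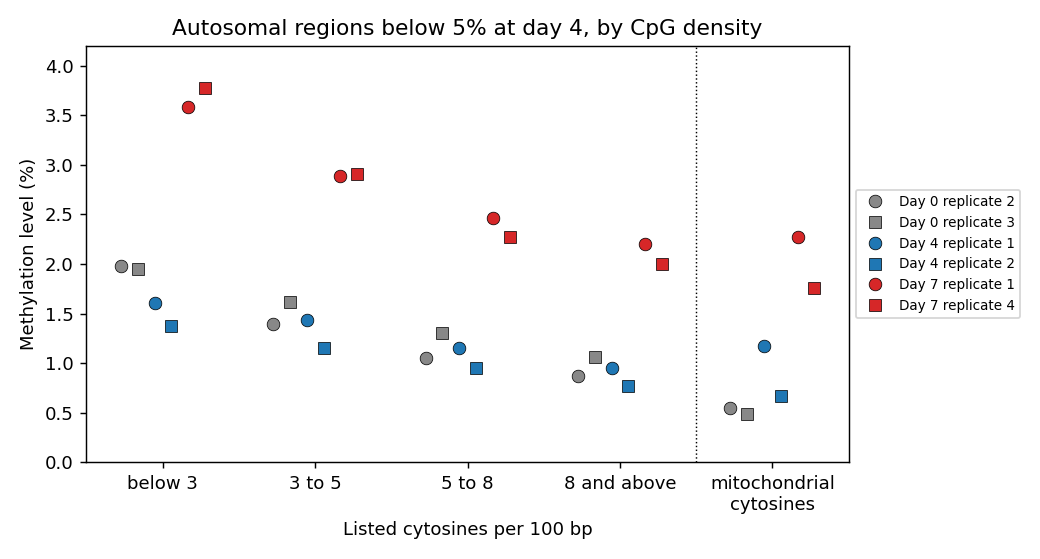
Mean level in percent of autosomal regions below 5% at day 4 in each of the 6 samples, by listed cytosines per 100 bp, with the mitochondrial cytosines at the right. Both day 7 samples (red) lie above the other 4 in each density class, and also on the mitochondrial sequence.

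By locus, the difference was alike over the autosomes. The mean level was higher at day 7 on all 19 chromosomes, by 0.636 points on chromosome 5 to 1.14 points on chromosome 14, and the days did not overlap on 4 of them (chromosomes 12, 14, 17 and 19). Low regions were higher by 1.17 points on chromosome 3 to 1.46 points on chromosome 6, with no overlap of the days on any of the 19. Regions of large difference without overlap were most numerous on chromosome 4 (16 higher and 10 lower) and chromosome 15 (18 and 6). Chromosomes 2 (14 and 9), 5 (15 and 8) and 11 (9 and 13) were close behind. Of these, chromosomes 2, 4, 5 and 11 also held the most regions of the full set, with 4251, 4016, 4273 and 4233. Chromosome 15 held 2391. Over all autosomes they made up 0.608% and 0.341% of the 31405 tested regions with at least 20 summed reads in each sample. Shares by chromosome on that base were not computed.

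In 250 windows of 10 Mb with at least 50 regions each, the mean was higher at day 7 in 238, without overlap in 92, and it was lower without overlap in 1. The median difference was 0.964 points. The widest rise was on chromosome 2 from 60000001 to 70000000 (129 regions), with 49.8% and 47.2% on day 4 against 51.6% in both day 7 samples. On chromosome 3 from 10000001 to 20000000 (96 regions), the only window with both day 7 samples below, day 4 had 55.2% and 54.0%, against 53.9% and 52.9%. The gap between the nearest samples was under the spread within either day there. These windows were picked for their values and carry no test.

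**Figure D5:**
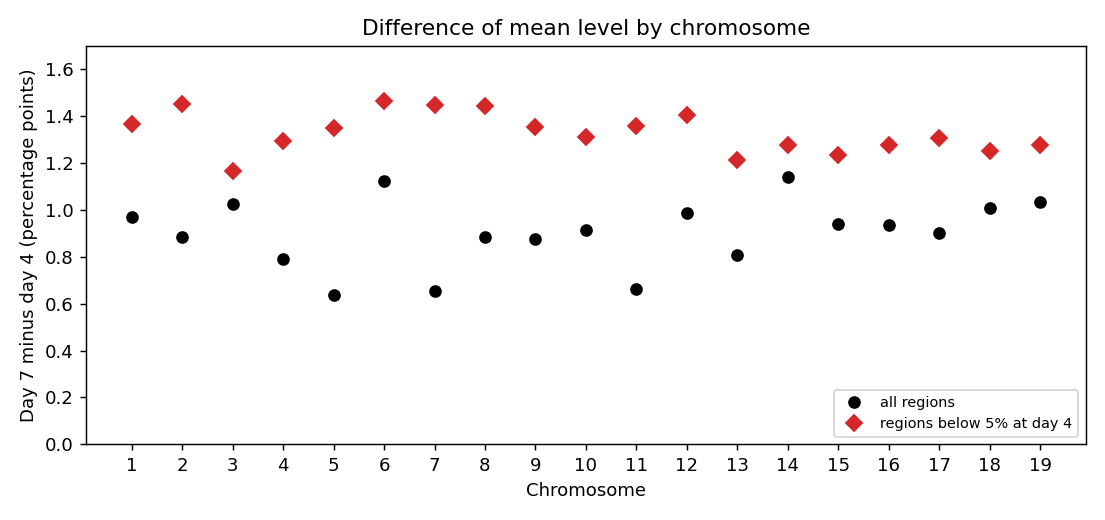
Difference of mean level between day 7 and day 4, in percentage points, on each autosome, for all regions (black circles) and for regions below 5% at day 4 (red diamonds). The circles range from 0.636 to 1.14 points and the diamonds from 1.17 to 1.46 points.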

How the data were processed

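Reduced representation bisulfite libraries (DNA cut with MspI or TaqI, per the labels' protocols) were handled with Bismark and Bowtie2 on mm9, per the submitters' processing notes. For versions, trimming and duplicate reads, details were not given in the sources used here. For each cytosine the deposited table gives the authors' methylated fraction and the counts of methylated and unmethylated reads, with no scaling. The deposited counts were used, and the deposited fraction equalled their ratio at each cytosine with reads (within 1e-06). No molecular identifiers are named, so limits at 0 (3 reads) cover counting error only. They treat all cytosines of a region as lying on the same reads, and are too wide where the reads differ along it.

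Samples were grouped by their titles. Nothing in the labels says that replicates are separate animals or cultures, so the spread between them is that of these samples alone, possibly a technical one. The p-values of the likelihood ratio test rest on 1 dispersion for all regions and not on the spread of a region's own replicates. Region counts entered edgeR 4.0.16 (R 4.3.3) in a negative binomial fit with a term per sample and a methylation term per day, dispersion without trend and a likelihood ratio test, on the 4 samples and 19 autosomes alone. The test was run on simulated counts, where it missed part of the differences put in. Those counts did not copy reads shared by neighbouring cytosines, so they cannot show how such reads affect the p-values. Level differences between days of 1 value per sample used the exact permutation test (scipy 1.17.1). The members and rules were chosen with earlier results of these data known. Named regions were up to 10 per direction: called regions by size of difference, then, with 20 or more reads in each sample, no overlap and 20 points or more, those with the smallest unadjusted p. Regions with an adjusted p below 0.05 and a smaller difference were added after their values were seen. Alternatives were another test (quasi-likelihood, Fisher's exact test, limma 3.58.1 on log2 ratios with a pseudocount of 0.5), other read, gap and length limits, all 6 samples, the X chromosome included, other ways to set the classes and each sample left out. Limits on reads per cytosine and classes from day 7 were chosen after seeing the data. Gene lists of the plan were not run, since positions of genes on mm9 were not used here.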

Additional observations from a re-analysis of the deposited data

Results flagged for a closer look

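Data outside the autosomal comparison separated day 7 from the other days. The 363 X regions below 5% at day 4 had a mean of 23.4% at day 7 (23.1% and 23.7% in replicates 1 and 4), against 0.804% at day 4 and 0.974% at day 0. The mitochondrial cytosines had a mean of 2.02% at day 7, against 0.919% at day 4 and 0.519% at day 0. What raised either level was not tested.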

How the results depend on the processing

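No paired analysis was possible because the days share only replicate number 1. Against 9 called regions (6 higher, 3 lower), edgeR's quasi-likelihood test called 2 (2 and 0), limma 0 (0 and 0; 5355 at an unadjusted p below 0.05) and Fisher's exact test on reads summed by day 306 (181 and 125). Fitting the X chromosome along gave 48 on the autosomes (21 and 27), which turned the balance of rises and falls, and no minimum difference gave 15 (12 and 3). A minimum of 10 reads at each cytosine, which left 1684 regions, gave 1 (1 and 0), gaps of at most 50 bp gave 5 (3 higher), a mean of at least 5 reads per cytosine 4 (2 higher), and dividing counts by the number of cytosines as well 1 (1 and 0). With 20 reads per region 1 was lower, and with 5 or more cytosines 0. Leaving out 1 sample gave 1 to 79 calls (1 to 24 higher, 0 to 55 lower): 3 without day 4 replicate 1, 1 without day 4 replicate 2, 79 without day 7 replicate 1 and 13 without day 7 replicate 4, of which 3, 0, 5 and 3 were among the 9. A day left with 1 sample is assumed to vary like the other, so these counts also follow the spread of the day that keeps both samples. The cause was not tested, apart from the smaller sets.

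The mean difference over all regions, 0.876 points, was 0.216 to 1.54 with 1 sample left out and 4.39 when weighted by reads. Very deep regions (above 10 times the median depth) hold 25.4% of the reads of day 7 replicate 4 and 7.46% to 9.77% in the other 3 samples. Without these regions the read-weighted levels were 32.36% and 31.33% in day 4 replicates 1 and 2. Day 7 replicates 1 and 4 then stood at 32.78% and 31.30%, so the days overlapped. With classes from day 0, or from 1 day 4 sample with the level from the other, the differences were 1.17 and 1.18 below 5%, 2.37 and 2.76 from 20% to 50%, 1.26 and 1.34 from 50% to 80%, and -0.242 and -0.0953 at 80% and above. Leaving out 1 sample gave 1.27 to 1.65, 3.07 to 5.70, 3.72 to 7.40 and -3.01 to -0.562 in these classes. The sparsest density class came to 5.93 with gaps of at most 50 bp, where it held 10 regions. Classes from day 7 gave 0.663, 2.43, 1.39, -3.40 and 2.59 from the lowest to the highest class, so the upper 2 changed direction. Otherwise no level difference by class or density did under the alternatives run. Depth limits single regions: 50.2% of regions had a mean of 5 or more reads per cytosine in day 7 replicate 4, against 95.1% to 99.6% in the other 3 samples.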
